A study of Mus musculus with 2 samples.

Results

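Connective cells of the embryonic mouse head that carried transcripts of *Thbs2*, *Shisa3*, *Hhip* and *Col14a1* are described here, as measured by MERFISH, a method that decodes single RNA molecules in a tissue section over repeated rounds of imaging. The cells, called members below, were chosen by their counts: a member had at least 20 panel transcripts, at least 3 counts of the 4 genes together, at least 3% of its transcripts from them, and more counts of these 4 genes than of *Dcn*, *Efemp1* and *Osr1* together. The rule found 1853 members among 55231 control cells that reached 20 transcripts and 2892 among 101250 KO cells, which makes 4745 of 156481 cells in all. The levels of these 7 genes in the members are therefore a description of the choice and no finding.

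The study took 1 coronal section of an E16.5 control embryo (*Sst-Cre/tdTomato*) and a second coronal section, from a *Dnmt1* KO embryo (*Sst-Cre/tdTomato/Dnmt1 loxP2*), cut at 10 µm from flash-frozen whole heads and probed with the Vizgen Pan Neuro panel of 500 genes. Both groups carried the *Sst*-driven Cre and the tdTomato reporter. Cre is made where the somatostatin gene *Sst* is active, so the floxed *Dnmt1*, which encodes a DNA methyltransferase, is a target for deletion in *Sst* cells and not in connective tissue as such. *Dnmt1* is not a panel gene, so the genotype was not checked. With 1 section per group there was no replicate and no test between the genotypes was run; run, section level and genotype cannot be told apart.

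The brain of the fetus is wrapped in meninges, the layers of fibroblasts that later become pia, arachnoid and dura, and outside them lie the mesenchyme that forms the skull vault, its sutures and the dermis of the scalp. Such cells build extracellular matrix and exchange growth factors with the brain beneath. Thbs2 is a matricellular glycoprotein and Col14a1 a collagen that sits on the surface of collagen fibrils. Hhip binds Hedgehog ligands at the cell surface and limits the pathway, and Shisa3 holds back receptors of the Wnt and FGF pathways.

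The sections differed in depth. The control section held 2842355 panel transcripts in 108533 segmented cells and the KO section 13437174 in 110004, with 50.9% and 92.0% of cells at 20 transcripts or more. Members held a median of 65 transcripts in the control (quartiles 47 and 87) and 156 in the KO (104 and 219), against 34 and 108 in all other cells. Levels are given as counts per 1000000 panel transcripts of the cells concerned (CPM), with exact Poisson intervals at 95%, and shares of cells with exact Clopper-Pearson intervals; both cover counting error only. Blank barcodes, which code for no gene, made up 0.343% and 0.433% of the members' molecules, and the highest of the 50 blanks reached 525 CPM in the control and 478 CPM in the KO members. No cell identifier occurred in both sections.

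Among the genes of the rule, *Thbs2* was found in nearly every member, and each of the other 3 genes in fewer. At least 1 *Thbs2* transcript was present in 96.3% of control members and 96.2% of KO members. *Hhip* was found in 36.6% and 48.2%, *Shisa3* in 35.6% and 53.3%, and *Col14a1* in 29.7% and 44.3%. Members with *Hhip* seldom had *Col14a1*: 10.6% of control and 24.7% of KO members with *Hhip* also had it, against 40.8% and 62.6% of those without *Hhip*. *Shisa3* went with *Col14a1* instead, which was present in 41.9% and 58.9% of the members with *Shisa3* and in 23.0% and 27.7% of those without. The choice by a summed count can itself set one gene against another, so these shares are descriptive.

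A single gene of the 4 was found in 462 control members (24.9%) and 351 KO members (12.1%), and all 4 in 33 (1.78%) and 241 (8.33%). The most frequent combination in both sections was *Thbs2* with *Hhip* and neither of the others, with 471 control and 643 KO members. The median member held 5 counts of the 4 genes in the control, or 7.95% of its transcripts, and 9 counts or 6.06% in the KO. The levels in members were 54083 CPM for *Thbs2* in the control (52833 to 55355) and 38497 CPM in the KO (37956 to 39043). For *Hhip* they were 11296 and 9951 CPM, for *Shisa3* 8459 and 7416 CPM, and for *Col14a1* 7325 and 8746 CPM. Members held 51.4% and 45.5% of all *Thbs2* counts in segmented cells of the sections but 30.9% and 30.7% of the *Col14a1* counts, the latter gene being spread more widely outside them.

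Around the limits the counts were small. Exactly 3 counts of the 4 genes were held by 508 control and 187 KO members. A further 587 control and 212 KO cells would have been members with 2 counts, and their *Igf2* levels were 216300 and 195699 CPM against 233547 and 195980 CPM in members with 3 counts. The 20 neural genes summed to 17218 and 34116 CPM in them, against 12462 and 23851 CPM in members with 3 counts. At the share limit, 112 control and 480 KO members lay between 3% and 4%, and 28 and 402 cells that met the rest of the rule lay between 2% and 3%. The comparison with *Dcn*, *Efemp1* and *Osr1* kept out 700 control and 1631 KO cells that met the counts and the share, of which 107 and 121 were ties.

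The levels of the 4 genes were also read in imaging planes that took no part in the choice. With the rule applied to planes 0, 2, 4 and 6 alone, 1119 control and 2470 KO cells were chosen, of which 1054 and 2237 were also members by all planes. In planes 1, 3 and 5 of the same cells, *Thbs2* stood at 45953 CPM in the control (43803 to 48181) and 35059 CPM in the KO (34239.9 to 35894), against 4760 and 2007 CPM in the other cells. *Hhip* stood at 9625 and 9317 CPM against 779 and 511 CPM. *Shisa3* stood at 7078 and 6861 CPM against 718 and 394 CPM, and *Col14a1* at 5684 and 7980 CPM against 1201 and 781 CPM. The levels in the unused planes were below those of the planes used for the choice in each of these 8 values (for *Thbs2*, 64028 and 41323 CPM).

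The members formed a thin shell around the brain. In both sections they lay in 1 or more narrow bands that followed the outline of the brain at a distance, with thicker patches on one side. On the upper right outline of the control section almost none were found. The mesenchymal cells chosen by *Dcn*, *Efemp1* and *Osr1* lay on both sides of the members. Neural tissue was taken as the cells whose 30 nearest cells drew at least 5% of their transcripts from the 20 genes of a neural list. This list also held *Meis2*, *Foxp1*, *Ebf1* and *Nr4a2*, which were found in members too. Of the members, 2 in the control (0.108%) and 39 in the KO (1.35%) lay within it, against 77.8% and 90.5% of the cells that were neither members nor mesenchymal.

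**Figure D1:**
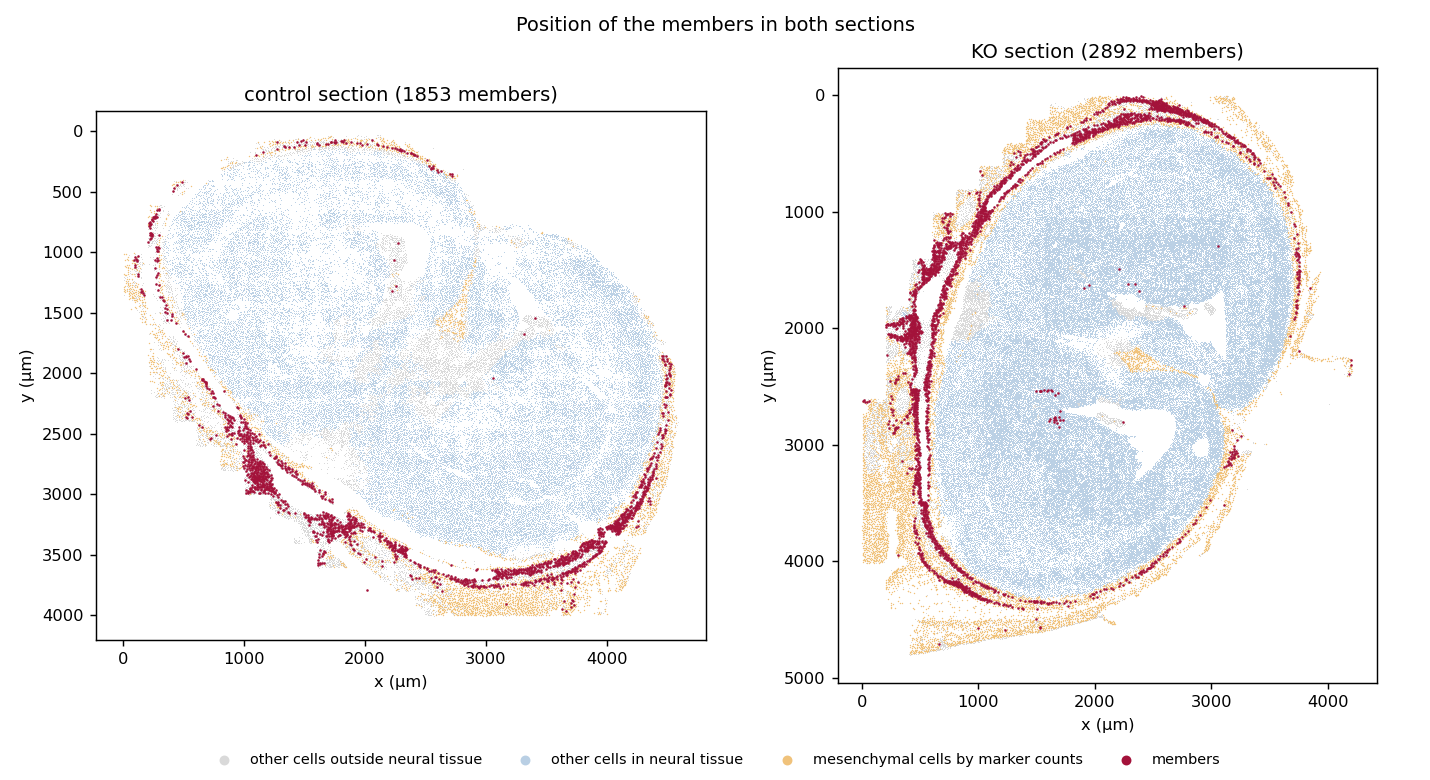
Position in µm of all cells with at least 20 transcripts in the control section (left) and the KO section (right), with 1853 and 2892 members in dark red, mesenchymal cells by marker counts in orange, cells in neural tissue in blue and all other cells in grey. The members follow the outline of the brain outside the neural tissue, and a few KO members lie inside it.

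The distance from a member to the nearest cell of neural tissue had a median of 145 µm in the control (quartiles 103 and 222) and 129 µm in the KO (80.2 and 165). For mesenchymal cells the medians were 244 and 199 µm, with wider quartiles of 88.0 and 378 µm in the control and 66.7 and 326 µm in the KO. A distance of 60 to 220 µm held 66.7% of control and 72.5% of KO members, against 29.4% and 31.5% of the mesenchymal cells. The median distance from a member to the nearest mesenchymal cell was 25.8 µm and 22.0 µm, and to the nearest cell with endothelial markers 52.4 µm and 35.8 µm. The distance depended on the limit set for neural tissue, and with 3% in place of 5% the medians were 100.1 and 79.9 µm.

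The share of members among the cells outside neural tissue was highest in the same band of distance in both sections, but in the control other bands were within counting error. It was 0.535% in the control and 2.96% in the KO within 30 µm of neural tissue. At 120 to 150 µm it reached 25.6% in the control (306 of 1193 cells, 23.2% to 28.2%) and 35.4% in the KO (620 of 1749 cells, 33.2% to 37.7%). In the control this interval overlapped those at 90 to 120 µm (19.7% to 24.1%), 150 to 180 µm (19.7% to 25.2%) and 220 to 260 µm (20.6% to 26.2%). Beyond the maximum the control stayed between 20.2% and 23.3% up to 260 µm, while the KO was at 11.7% from 180 to 220 µm. At 320 to 400 µm the shares were 5.2% and 1.65%, while mesenchymal cells made up 47.2% and 76.6% of the cells there.

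The transcripts of the 4 genes in all cells outside neural tissue, members or not, were high in and around that band, whereas *Dcn* was higher farther out. These genes chose the members, which are among the cells pooled here, so the levels restate the choice and are no support for the band. At 90 to 120 µm *Shisa3* reached 4085 CPM in the control and 4068 CPM in the KO, and *Col14a1* 4314 and 5810 CPM. *Hhip* reached 5913 and 4807 CPM in the same band, which held the maximum of all 3 genes in both sections. *Thbs2* peaked in the KO at 120 to 150 µm with 24858 CPM and held between 23987 and 28251 CPM from 90 to 260 µm in the control. *Dcn*, the gene of the proteoglycan decorin, stood at 33326 and 46803 CPM at 90 to 120 µm and at 74500 and 99662 CPM at 320 to 400 µm.

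**Figure D2:**
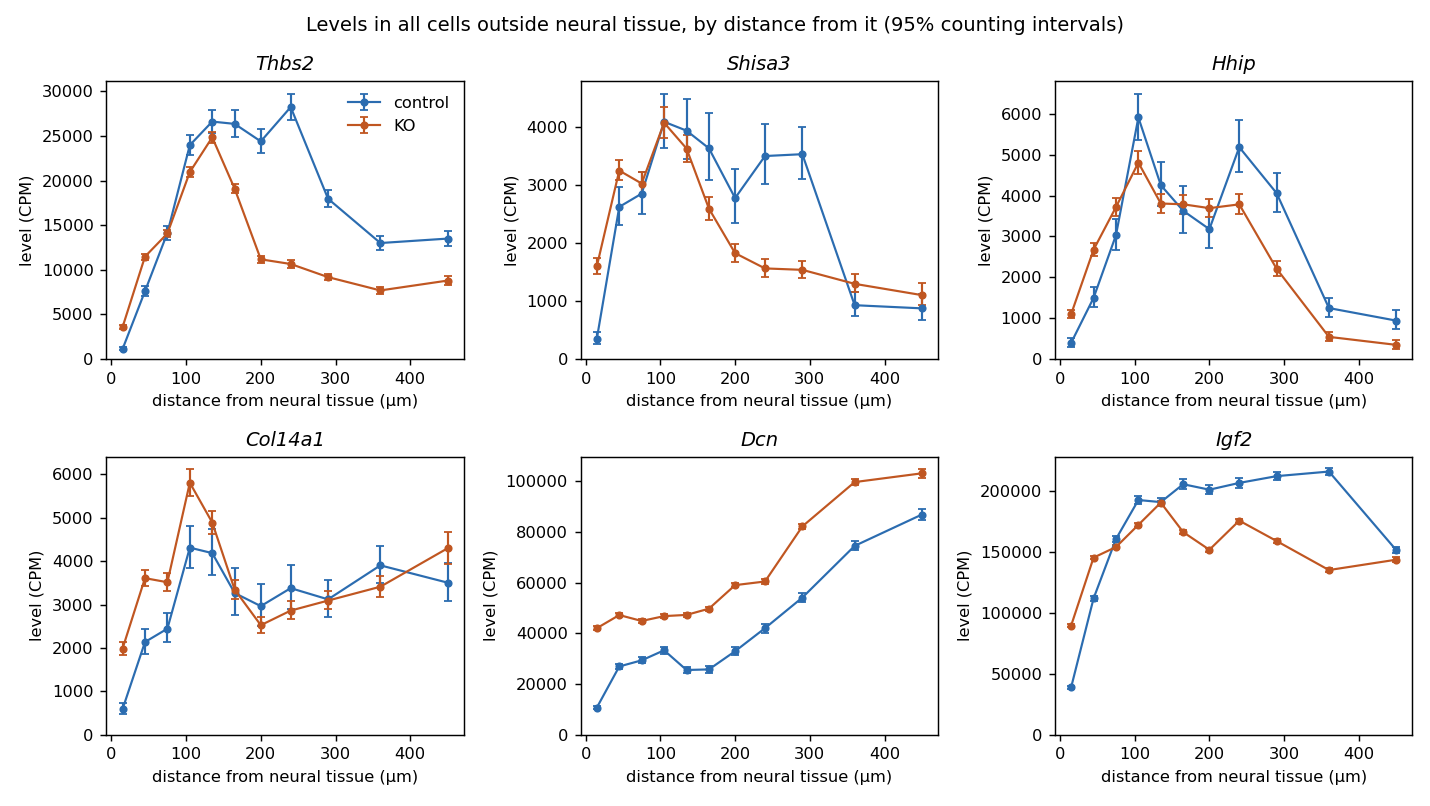
Level (CPM) of the 4 genes of the rule, of *Dcn* and of *Igf2* in all cells outside neural tissue against the distance from it (µm, midpoint of each band up to 500 µm), in the control section (blue) and the KO section (orange), with bars for the 95% counting intervals. *Shisa3*, *Hhip* and *Col14a1*, which the choice of members used, have a maximum at 90 to 120 µm in both sections, while *Dcn* stands higher at 320 to 400 µm.

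Members lay next to each other. Among the 10 nearest cells of a member, the median share of members was 40% in the control (quartiles 20% and 60%) and 60% in the KO (30% and 70%), whereas members made up 10.9% and 13.2% of the cells outside neural tissue and 3.36% and 2.86% of all cells. No other member was among the 10 nearest for 109 control members (5.88%) and 139 KO members (4.81%). Mesenchymal cells by marker counts made up a mean of 14.6% and 18.4% of the nearest cells, against 25.2% and 48.1% of the cells outside neural tissue. Cells with microglial markers made up 4.60% and 4.66%, against 4.91% and 5.85% outside neural tissue. With the KO section thinned at random to the control depth, the KO median was 30%, so that the order of the sections is not independent of depth.

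The share of members among all cells was 3.36% in the control (3.21% to 3.51%) and 2.86% in the KO (2.75% to 2.96%). Its order between the sections depended on the cells counted and on depth. Among cells outside neural tissue alone it was 10.9% in the control (10.4% to 11.3%) and 13.2% in the KO (12.8% to 13.7%), and after thinning of the KO section 8.02% (7.59% to 8.47%). How much of the tissue around the brain was left on each section was not measured, and no difference between the genotypes is read from these shares.

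Members were more elongated than other cells in both sections. The ratio of the long to the short axis of the outline, called anisotropy in the deposited metadata, had a median of 1.5 in control members and 1.54 in KO members, against 1.41 and 1.45 in mesenchymal cells and 1.39 and 1.40 in the remaining cells. The median volume of members was 1.16 times that of the remaining cells in the control and 1.56 times in the KO. The DAPI stain per volume was 0.627 and 0.491 times that of the remaining cells, and the PolyT stain, which marks messenger RNA, 0.791 and 0.655 times. Mesenchymal cells stood farther from the remaining cells in volume (1.39 and 1.75 times), DAPI (0.489 and 0.416) and PolyT (0.694 and 0.593). Quartiles overlapped in each of these measures between members and mesenchymal cells.

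Molecules that the segmentation left outside cells were placed in the same way. Within 10 µm of a member's centre, *Thbs2* made up 36.6 of 1000 such molecules in the control (34.6 to 38.6) and 33.7 in the KO (32.7 to 34.6), against 2.71 and 1.91 away from members and mesenchymal cells. *Hhip* made up 5.77 and 5.88 of 1000 near members and 0.379 and 0.380 elsewhere. Near mesenchymal cells without a member, *Hhip* was at 0.755 and 1.34 of 1000, *Thbs2* at 12.9 and 11.2 and *Dcn* at 70.6 and 96.3. *Col14a1* was at 3.05 and 3.97 there, against 6.28 and 9.50 near members. *Dcn* was at 22.4 and 26.7 near members. These molecules took no part in the choice, although some may belong to the same cells.

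Beyond the 7 genes of the rule, 243 panel genes whose mean over both whole sections was at least 525 CPM, the median of the panel, were compared between members and all other cells of the same section. A gene was called where the ratio was at least 2-fold and its counting interval left out no difference. In the control 26 of 243 genes (10.7%) were higher in members and 139 (57.2%) lower. In the KO 34 (14%) were higher and 134 (55.1%) lower, and 26 genes were higher and 133 lower in both. The median log2 ratio over the 243 genes was -1.57 and -1.64. Genes that vary with those of the rule in the same cells are not independent of the choice, so these ratios describe the members.

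*Igf2*, *Igfbp5* and *Timp3* were among the genes with the 10 highest ratios. *Igf2*, an imprinted growth factor of fetal tissue, was at 239176 CPM in control members (236539 to 241834) and 221238 CPM in KO members (219939 to 222542), against 49790.4 and 30962 CPM in the other cells, a log2 ratio of 2.26 and 2.84. *Igfbp5*, which binds the insulin-like growth factors, was at 43845 and 30177 CPM against 11059 and 4230 CPM (log2 1.99 and 2.83). *Timp3*, an inhibitor of matrix metalloproteinases, was at 14536 and 15627 CPM against 3752 and 2909 CPM (log2 1.95 and 2.43). All 3 were higher in both sections, with the larger ratio in the KO.

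Of the other genes with the 10 highest ratios, *Ccdc3* had log2 ratios of 2.33 and 3.05, and *Egfr*, the receptor of epidermal growth factor, 2.32 and 2.66. *Col9a2*, a chain of the type IX collagen of cartilage, was at 2328 and 2590.2 CPM against 388 and 401 CPM (log2 2.58 and 2.69). *Penk*, the precursor of the enkephalins, had ratios of 2.36 and 2.88, and *Npnt*, the matrix protein nephronectin that is bound by integrins, 1.73 and 2.58. *Pmp22*, best known from the myelin of peripheral nerve, had 2.04 and 2.36, and *Daam2*, a formin of Wnt signalling, 2.08 and 2.26. In each of these 7 genes the level of the members was above that of all other cells in both sections.

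Of the genes with low ratios, *Tbr1*, of deep cortical neurons, was at 129 and 135 CPM in members against 12764 and 13546 CPM in other cells, with log2 ratios of -6.63 and -6.64, *Fezf2* -6.93 and -6.15, *Gad2*, which makes GABA, -6.59 and -6.49, and *Igfbpl1* -6.61 and -7.42. In members all 4 lay below the highest blank barcode. *Sst*, whose promoter drives Cre in both groups, was at 122 CPM in control and 110 CPM in KO members, also below the highest blank, against 908 and 855 CPM in other cells.

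**Figure D3:**
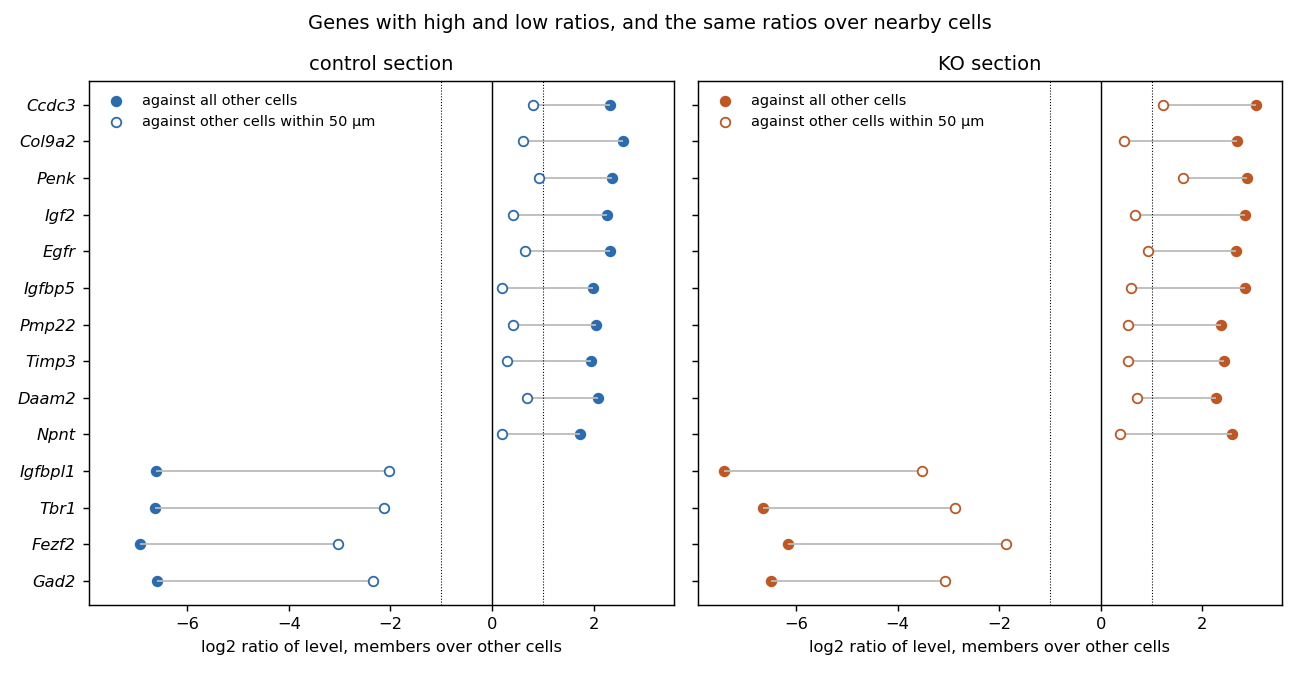
log2 ratio of the level in members over that in all other cells (filled) and over other cells within 50 µm of a member (open) for the 10 genes with the highest ratios and 4 with low ones, in the control (left) and KO (right) sections, with dotted lines at 2-fold. The ratios of the 10 high genes move toward 0 when only nearby cells are used, to between 0.19 and 0.92 in the control and 0.38 and 1.62 in the KO.

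Fewer genes were higher in members when only the tissue around them was used. That tissue was not alike in the sections. Of the other cells within 50 µm, 32.4% in the control and 46.1% in the KO were mesenchymal by marker counts. In neural tissue lay 2.62% and 16.9% of them. Against the other cells within 50 µm, of which 6631 lay in the control and 10538 in the KO, only 3 of 243 genes (1.23%) were called higher in the control and 5 (2.06%) in the KO. *Tenm3*, a teneurin that mediates cell adhesion, was called in both, with log2 ratios of 1.2 and 1.19. The others were *Stac2* (1.36) and *Sox6* (1.12) in the control and *Penk* (1.62), *Sulf2* (1.27), *Ccdc3* (1.22) and *Ptpru* (1.21) in the KO, and these 7 genes are named after their values were seen. *Igf2* was at 180777 and 139504 CPM in the nearby cells, and its ratio of members to them was 0.40 in the control and 0.67 in the KO. The genes of the rule kept a wide gap to the nearby cells, by construction: *Thbs2* was at 12290 CPM there in the control and 8534 CPM in the KO.

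Of the list of other mesenchymal, matrix and growth factor genes, all 11 measured genes were tested. In the control 3 were called higher and 2 lower, with a median log2 ratio of 0.56, and in the KO 4 were higher and 2 lower, with a median of 0.56. Over all 243 genes 10.7% and 14% were higher and 57.2% and 55.1% lower, with medians of -1.57 and -1.64. *Pdgfra*, the receptor that marks fibroblasts, was at 10360.3 and 13883 CPM in members (log2 1.63 and 2.01) and was found in 47.2% and 78.3% of them. *Col15a1*, a basement membrane collagen, had ratios of 0.94 and 0.92 and did not reach 2-fold. *Ndnf* was called in the KO alone, at 1.46 against 0.56 in the control. *Peg10* (-1.62 and -1.64) and *Dlk1* (-2.17 and -1.87), both imprinted, were lower, with *Dlk1* below the highest blank in members of both sections, so that the imprinted genes *Igf2*, *Dlk1*, *Peg10* and *Nnat* did not share a direction: 1 of the 4 was higher and 3 were lower in both sections. The chemokines *Cxcl12* and *Cxcl14*, the receptor *Ngfr* and *Mfge8* were called in neither section.

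Of the pathway genes, only 5 of 41 listed ones were on the panel and 2 passed the level filter. *Bmp4*, a ligand of the BMP pathway, was at 1194 and 2152 CPM in members, with log2 ratios of 0.90 in the control and 1.42 in the KO, where it was called. Against other cells within 50 µm the KO ratio turned to -0.80. *Wnt7b*, a ligand of the Wnt pathway that neural cells express, was at 259 and 261 CPM against 3324 and 4801 CPM in other cells (log2 -3.68 and -4.20), and the level in members was below the highest blank. Below the filter, *Rspo1*, which strengthens Wnt signals, was at 571 and 559 CPM against 174 and 134 CPM, *Fgfr3* at 928 and 824 CPM against 448 and 421 CPM, and *Vwc2*, a BMP antagonist, at 479 and 436 CPM against 662 and 322 CPM. *Vwc2* lay below the highest blank in the members of both sections.

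No measured marker of other cell types was at 0 in the members. Mural markers were higher in sum than in other cells in both sections, and microglial markers in the KO alone. The mural sum in members was not above that of the mesenchymal cells by marker counts, which was 16727 CPM in the control and 20389 CPM in the KO. Of 5 mural genes, *Pdgfrb* (log2 1.75 and 1.99) and *Cspg4* (1.83 and 1.94) were higher, and fibroblasts also express both. Over all 243 genes 10.7% were higher in the control and 14% in the KO. The more specific mural genes *Kcnj8*, *Abcc9* and *Acta2* were not called. The median log2 ratio of the 5 genes, which is the highest ratio among the uncalled ones, was 0.41 in the control and 0.99 in the KO. It was thus just short of 2-fold in the KO. The 5 mural genes summed to 16712 CPM in control and 13817 CPM in KO members, against 7123 and 6310 CPM in other cells. The 4 endothelial genes summed to 3628 and 3428 CPM against 6188 and 6416 CPM, with *Cldn5*, of the blood vessel barrier, lower in members (log2 -2.19 and -2.12). The 5 genes of microglia or macrophages summed to 6047 and 5511 CPM against 7002 and 4289 CPM, and 0 of the 3 tested were called.

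The 20 neural genes summed to 11988 CPM in control members and 17514 CPM in KO members, against 99795 and 128285 CPM in other cells, with 19 and 18 of 20 called lower. *Meis2* alone held 3712 and 5543 CPM of the sum in members. The 4 genes of oligodendrocyte precursors summed to 259 and 376 CPM, with all 3 tested ones lower. Of the 9 genes of radial glia and progenitors 6 were lower in both sections, beside 133 of all 243 genes. The exceptions were *Sox9* (-0.06 and -0.12), *Ccnd2* (-0.43 and 0.22) and *Top2a* (-0.13 and -0.26), of which the latter pair act in dividing cells of any kind. Transcripts of a neighbouring cell that the segmentation assigned to a member were not told apart from its own, and their part in these levels was not tested.

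Members were also compared with the mesenchymal cells chosen by *Dcn*, *Efemp1* and *Osr1*, of which there were 4394 in the control and 10798 in the KO. Against them 17 of 243 genes (7%) were higher in control members and 56 (23%) lower, and in the KO 13 (5.35%) were higher and 73 (30%) lower. In both sections 10 genes were higher and 51 lower. *Sox9*, *Sox6* and *Col9a2* were among the 10, which are named after their values were seen. *Sox9*, the transcription factor that commits cells to cartilage, was at 9660.4 and 6594 CPM in members and 2556 and 2318 CPM in mesenchymal cells (log2 1.92 and 1.51). *Sox6*, its partner factor, was at 1012 and 1804 CPM against 207 and 404 CPM (2.29 and 2.16), and *Col9a2* had ratios of 2.07 and 2.13. *Sox9* was found in 34.8% of control and 44.6% of KO members, *Col9a2* in 11.3% and 24.6%.

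The other 7 higher genes were *Tenm3* (1.72 and 1.54), *Ptpru* (1.12 and 1.68), *Npnt* (1.31 and 1.26), *Penk* (1.07 and 1.23), *Grin3a* (1.34 and 1.19), *Stac2* (2.09 and 1.26) and *Sstr2* (1.55 and 1.19). The last pair were at 243 to 411 CPM in members, below the highest blank. Lower in members than in mesenchymal cells were *Cxcl12*, a chemokine of meningeal and perivascular cells, at 1354 and 2321 CPM against 6970 and 10938 CPM (log2 -2.36 and -2.24), *Dlk1* (-2.84 and -2.50), *Nnat* (-3.21 and -2.29) and *Ngfr* (-2.19 and -1.92). *Igf2* and *Pdgfra* differed less, by 0.35 and 0.71 and by -0.24 and -0.17. The 5 microglial genes were higher in the mesenchymal cells, at a sum of 17069 and 15282 CPM.

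Members were not uniform. Grouped by the gene of the rule with the most counts in a cell, which also depends on how well each gene's probes are detected, 1359 control and 2014 KO members were led by *Thbs2*. *Hhip* led 154 and 329, *Col14a1* 81 and 203, *Shisa3* 84 and 124, and in 175 and 222 members 2 or more genes tied. Each group was compared with all other members over the 243 genes that were above the panel median among members, and a gene was counted when it was called in the same direction in both sections.

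*Crabp2* and *Nr2f2* were called higher both in *Shisa3*-led and in *Col14a1*-led members. In *Shisa3*-led members 5 genes (2.06%) were higher and 7 (2.88%) lower, and in *Col14a1*-led members 5 (2.06%) were higher and 9 (3.7%) lower. *Crabp2*, which carries retinoic acid to its receptors, was at 6927 and 7488 CPM in *Shisa3*-led members and at 5193 and 5894 CPM in *Col14a1*-led ones, against 1847 and 1914 CPM in *Thbs2*-led and 1099 and 1551 CPM in *Hhip*-led ones. *Nr2f2*, a nuclear receptor, was at 3210.0 and 3967 CPM in *Shisa3*-led and 2596 and 2563 CPM in *Col14a1*-led members, and at 799 and 785 CPM in *Hhip*-led ones. Both genes were thus highest in the *Shisa3*-led and lowest in the *Hhip*-led members in each section.

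In *Shisa3*-led members a further 3 genes were called in both sections, namely *Crym* (log2 2.04 and 2.49), the organic cation transporter gene *Slc47a1* (2.41 and 1.44) and the Wnt receptor gene *Fzd4* (1.38 and 1.13). In *Col14a1*-led members the other 3 were *Cemip*, of hyaluronan breakdown (2.25 and 2.16), the cytokine gene *Il33* (2.72 and 1.09) and *Calca* (1.74 and 1.57). In the KO, *Crym* was also called in *Col14a1*-led members (1.63), and *Cemip* (1.81), *Il33* (1.53) and *Calca* (1.33) also in *Shisa3*-led ones. These calls rest on few counts in the control, from 6 for *Crym* and *Slc47a1* to 14 for *Fzd4*. In the KO, *Slc47a1* rests on 10 counts, and the lower end of its interval was 0.09. Over all members, *Crym* and *Slc47a1* lay below the highest blank in both sections, and *Il33* and *Calca* in the control. The difference between the *Shisa3*-led and the *Col14a1*-led members was not itself compared.

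Members led by *Hhip*, with 1 control and 35 KO cells inside neural tissue, had 2 higher genes (0.823%) and 3 lower ones (1.23%). Among the higher ones, *Npnt* was at 7491 and 12481 CPM in *Hhip*-led members, 3368 and 6875 CPM in *Thbs2*-led ones, and between 676 and 1397 CPM in the other groups. *Meis2*, *Spon1* and *Cxcl14* were called lower in *Shisa3*-led and in *Col14a1*-led members in both sections, *Meis2* by a log2 ratio of -2.19 and -2.77 in the former and -3.38 and -2.89 in the latter. In the control these 3 genes had only 5, 3 and 5 counts in *Shisa3*-led and 2, 4 and 5 in *Col14a1*-led members. The *Meis2* ratio of -3.38 had an interval from -6.55 to -1.39. *Spon1* had 4 counts in KO *Shisa3*-led members. *Thbs2*-led members, the majority, had 1 higher gene (0.412%, *Chodl*) and 1 lower gene (0.412%, *Col23a1*).

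**Figure D4:**
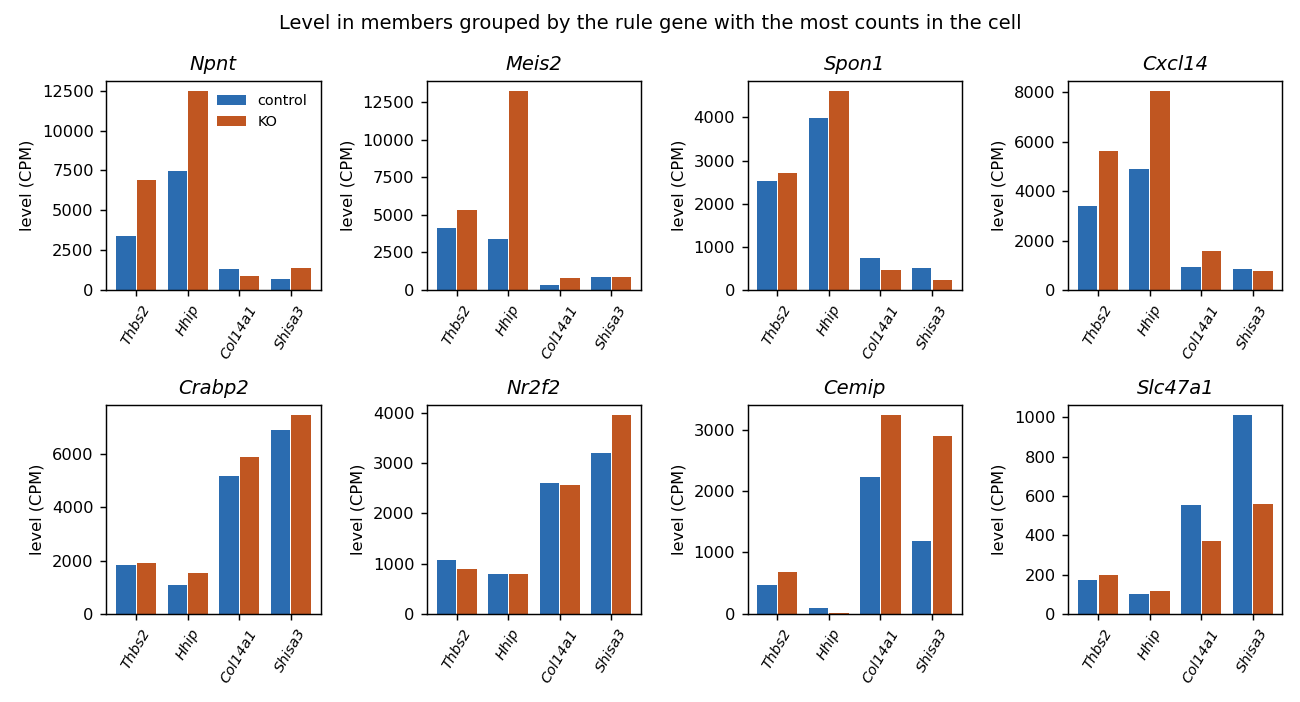
Level (CPM) of 8 genes outside the rule in members grouped by the rule gene with the most counts in the cell (horizontal axis), in the control (blue) and KO (orange) sections. *Npnt*, *Meis2*, *Spon1* and *Cxcl14* are low in *Col14a1*-led and *Shisa3*-led members, and *Crabp2* and *Nr2f2* are high there. In the control the low levels rest on 2 to 7 counts each. *Cemip* was called higher in both sections in *Col14a1*-led members, and *Slc47a1*, from 6 control and 10 KO counts, in *Shisa3*-led ones. The *Hhip*-led group includes 1 control and 35 KO members inside neural tissue.

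The groups lay at different median distances. *Shisa3*-led members lay at a median of 119 µm from neural tissue in the control (quartiles 86.6 and 192) and 83.3 µm in the KO (51.8 and 137), and *Thbs2*-led members at 154 µm (111 and 223) and 132 µm (90.5 and 163). The quartiles overlapped in both sections. *Hhip*-led members were at 121 and 120 µm and *Col14a1*-led ones at 116.0 and 116 µm. Among the 5 nearest members of an *Hhip*-led member, 26.4% in the control and 42.9% in the KO were *Hhip*-led too, against 8.31% and 11.4% of all members. The same shares were 18.3% and 16.8% for *Col14a1*-led members, which made up 4.37% and 7.02% of all, and 16.2% and 13.9% for *Shisa3*-led ones, which made up 4.53% and 4.29%. For *Thbs2*-led members they were 79.1% and 77.9%, against 73.3% and 69.6% of all. The *Hhip*-led group included 1 control and 35 KO members inside neural tissue, which were left in its distances and shares.

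The members inside neural tissue had another profile. Of the 39 in the KO, 35 were led by *Hhip*, and they held 32671 CPM of *Igf2* against 222685 CPM in the KO members outside, 5750.1 CPM of *Pdgfra* against 13945 CPM, and 83638 CPM of the 20 neural genes against 17007 CPM. The neural list also decided which cells counted as inside, so its level there restates the split in part. The median transcript count of these 39 members was 93, against 158 outside. The 2 control members there were too few to describe.

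Some genes changed with distance in the same direction in both sections. Members were parted at the median distance of their section into those nearer to neural tissue and those farther from it. The 2 control and 39 KO members inside neural tissue were left in the nearer part. Among the nearer members 7 of 243 genes were called higher and 11 lower in the control, and 6 and 9 in the KO. *Cd74* was called in opposite directions. Of 243 genes 1 was higher in the nearer members of both sections (0.412%), the adrenergic receptor gene *Adra1b* (log2 1.30 and 1.07). In both sections 7 (2.88%) were lower in the nearer members, among them *Penk* (1059 and 2785 CPM near, 4162 and 6783 CPM far), *Ngfr* (343 and 352 CPM near, 1353 and 969 CPM far), *Dlk1* and *Ebf3*. *Igf2* was level, with log2 ratios of -0.06 and 0.01.

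Between the sections, 23 of 243 genes differed by at least 2-fold in members: 21 (8.64%) were higher in the KO and 2 (0.823%) lower. The median log2 ratio of KO over control was 0.20 over these genes, and 90% of them lay between -0.70 and 1.11. In the other cells of the same sections the median was 0.01, with 90% between -0.78 and 0.83, and in the mesenchymal cells 0.27, with 90% between -0.46 and 1.34. Each ratio rests on 1 section per group. With the KO section thinned to the control depth 20 genes were called, of which 14 were among the 23. The rule was applied again to the thinned counts and found 1182 members, of which 995 were among the 2892. The thinned ratios thus differ in the cells as well as in depth.

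The 5 highest ratios were those of *Kcnk2*, *Epha3*, *Tshz2*, *Pou3f2* and *Hpcal1*. *Epha3*, a receptor of ephrins, was at 1217 CPM in control and 3896 CPM in KO members (log2 1.68, 1.39 to 1.98), and its ratio in other cells was 1.83. *Kcnk2*, a potassium channel gene, was at 76.1 and 287 CPM (1.91, 0.79 to 3.21), with 1.35 in other cells. *Tshz2* had 1.58 against 0.71 in other cells, *Pou3f2*, a factor of neural cells, 1.51 against 0.34, and *Hpcal1*, a calcium sensor gene, 1.37 against 0.59. *Kcnk2* and *Pou3f2* lay below the highest blank in the members of both sections, and they passed the filter on the mean level over both through the KO alone, so their place in this order is no support for a difference. *Tshz2* and *Hpcal1* lay below the highest blank in control members and above it in KO members, so their ratios rest on a control level within the range of the blanks. With the KO section thinned, *Pou3f2* was at 0.03 and not called, while *Kcnk2* (2.25), *Tshz2* (1.61), *Epha3* (1.55) and *Hpcal1* (1.52) were called.

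The lowest ratios were those of *Sim1* (-1.13, from 487 to 223 CPM) and *Myh8*, a myosin of fetal muscle (-1.01, from 677 to 336 CPM), which were called, and of *Ebf3* (-0.95), *Tnf* (-0.91) and *Fezf1* (-0.89), which were not. In other cells the ratios were -0.66, -0.75, -1.41, -0.04 and -0.78 in the same order. *Sim1*, *Tnf* and *Fezf1* were below the highest blank in both sections. *Tnf* and *Fezf1* drew the mean level that the filter used mainly from the control, so their place in this order is no support for a difference. When the KO section was thinned to the control depth, *Sim1* was at -0.56 and not called, and *Myh8* turned to 0.13.

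The genes of the rule chose the members in each section, at different depths, so their ratios between the sections describe the choice: *Thbs2* had a log2 ratio of -0.49, *Shisa3* -0.19, *Hhip* -0.18 and *Col14a1* 0.26. Of the lists, 1 of 11 tested neural genes and 1 of 4 imprinted genes were called higher, beside 8.64% of all genes, and no gene of another list was called. *Ebf1*, of the neural list, was at 814 and 1762 CPM (log2 1.11), with 0.93 in other cells. *Nnat*, the imprinted gene of neuronatin, was at 647 and 1298 CPM (1.01), with -0.13 in other cells. Among the other imprinted genes, *Igf2* had -0.11 in members and -0.69 in other cells, *Peg10* -0.58 and -0.56, and *Dlk1* -0.40 and -0.70. *Igfbp5* had -0.54 in members and -1.39 in other cells. *Npnt*, high in *Hhip*-led members, was at 3431 and 6877 CPM (1.0), with 0.14 in other cells and 1.05 in mesenchymal cells. Within the groups by leading gene, *Npnt* was at 3368 and 6875 CPM in *Thbs2*-led and 7491 and 12481 CPM in *Hhip*-led members. In *Shisa3*-led members it was at 676 and 1397 CPM, and in *Col14a1*-led ones at 1298 and 854 CPM. The control values of these 2 groups rest on 4 and 7 counts. After thinning, *Ebf1* (0.83), *Nnat* (0.61) and *Npnt* (0.93) were not called.

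**Figure D5:**
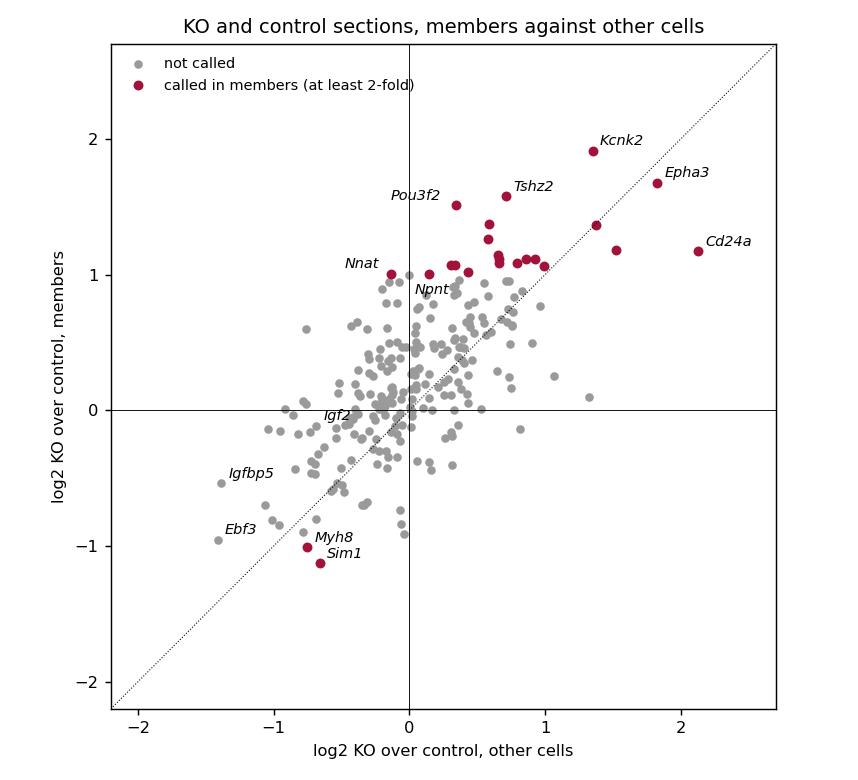
log2 ratio of KO over control in members (vertical) against the same ratio in all other cells (horizontal) for the 243 genes above the panel median among members, with the 23 called genes in dark red and a dotted line of equality. *Nnat* is the called gene above 0 in members and below 0 in other cells, and *Kcnk2* and *Epha3* stand at 1.91 and 1.68 in members.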

How the data were processed

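As described for the study, the authors decoded molecules and outlined cells on the MERSCOPE instrument; the outlining model is not given in the sources used here. The deposited values were raw counts of molecules per cell and gene, without normalization. The deposited stain values were summed intensity per cell, in the instrument's units and not normalized between sections, so they were compared within a section and per volume. The deposited molecule list gave position and plane (7 planes), and the metadata the position, volume and anisotropy of other kind. The clusters of the study were not used here, and no doublet caller was run.

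The members and lists were chosen with earlier results of these data known. Cells under 20 panel transcripts were left out, and blank barcodes were left out of totals. Ratios are log2 of CPM over pooled counts without a pseudocount, and an interval pairs opposite ends of both exact Poisson intervals, so that it is wider than 95%. The calculation of the calls was run on Poisson counts simulated with known folds. These had no variation between cells, no misassigned transcripts and no choice of cells by counts. The run therefore checks the calculation only, not the calls made here. Named were the genes of the rule and of the lists, the 10 highest and 5 lowest ratios over other cells among genes called in both sections, and the 5 highest and 5 lowest KO ratios; genes outside this rule were named after their values were seen, and a few results are not reported here. Neural tissue and the groups by leading gene and by distance were set after seeing the data. For the thinned KO section, each transcript was kept with a chance of 21.4%, and the members were chosen anew from the kept counts. Python 3.11.15, numpy 2.4.6, scipy 1.17.1, pandas 2.3.3 and matplotlib 3.10.9 were used.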

Additional observations from a re-analysis of the deposited data

Results flagged for a closer look

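*Nnat* was the only gene called at least 2-fold apart between KO and control members (log2 1.01, 85 counts in the control and 652 in the KO) whose ratio in the other cells had the opposite sign beyond counting error (-0.13, from -0.14 to -0.12). The difference between the cell groups was not tested, since each group is 1 section. With the KO section thinned to the control depth the ratio in members was 0.61, and with the 7 genes of the rule left out of the totals 0.98, and it was called in neither.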

How the results depend on the processing

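The share of members, 3.36% in the control and 2.86% in the KO, moved with nearly every limit of the rule. In the control it was 2.24% with a minimum of 10 transcripts and 9.68% with 50, 2.87% with at least 5% from the 4 genes, 4.42% and 1.83% with at least 2 and 5 counts, 4.62% without the comparison with *Dcn*, *Efemp1* and *Osr1*, and 5.24% in imaging plane 0 alone. Without *Thbs2*, *Shisa3*, *Hhip* or *Col14a1* in the rule it was 0.744%, 2.97%, 2.81% and 2.98%. In the KO it was 3.24% with a minimum of 50, 3.25% and 1.91% with at least 2% and 5%, 3.07% and 2.44% with at least 2 and 5 counts, 4.47% without the comparison, 2.42% in plane 0, 1.95% after thinning, and 0.845%, 2.51%, 2.36% and 2.49% without each gene in turn.

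With all genes that had at least 1 count, the genes higher in members numbered 48 of 493 (control) and 64 of 493 (KO), and 39 of 488 differed between KO and control members. Against other cells within 50 µm, 3 and 5 genes were higher. There the ratios of *Bcan* (0.33), *Meis2* (0.37), *Sstr2* (0.46), *Stac2* (1.36), *Unc5d* (0.56) and *Sim1* (-0.36) in the control and of *Stac2* (0.61) and *Bmp4* (-0.80) in the KO had the opposite sign to those over all other cells, 59 further values lost the call, 17 gained it and 102 kept direction and call. Thinning of the KO section turned *Myh8* to 0.13 in KO over control members, while 9 values lost the call, 4 gained it and 79 kept both. The median share of members among the nearest cells was 60% in the control with a minimum of 50, and in the KO 46.7% over the 30 nearest cells and 30% after thinning. Other limits for neural tissue, chosen after seeing the data, gave median distances of 100.1 µm (control) and 79.9 µm (KO) at 3% and 181 µm (KO) at 10%. The causes were not tested. The KO section had more transcripts per cell, and low genes in the control rest on few counts.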

Other observations

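Several genes below the panel median over whole sections, and so outside the comparison, stood higher in members, and are named after their values were seen. *Calca* was at 426 and 820 CPM in members of the control and the KO, against 74.0 and 66.7 CPM in other cells, the control value lying below the highest blank. *Adgrg6*, an adhesion receptor gene, was at 1324 and 2927 CPM against 244 and 384 CPM. *En1*, a transcription factor gene, was at 1438 and 1288 CPM against 273 and 249 CPM. *Hapln1*, which links hyaluronan to proteoglycans in cartilage, was at 525 and 846 CPM against 116 and 157 CPM, and *Fgf2* at 1232 and 1891 CPM against 345 and 358 CPM. The *Hapln1* level in control members was level with the highest blank.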
